A study of Mus musculus with 9 samples.

Results

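The genes of cholesterol synthesis, sterol sensing and cholesterol handling were followed by RNA sequencing in B16F10 cells, an established mouse melanoma line. The 31 genes were taken from a list of symbols, which was chosen with earlier results of these data known. All 31 had an ID among the 54752 gene IDs counted, and all 31 passed the filter on low counts that left 17931 genes to test. The cells fell into 3 groups of 3 libraries. Tada2bsg1 (guide 1) and Tada2bsg2 (guide 2) each carry a guide named for Tada2b and are labelled as Tada2b knockout, and GFPsg carries a guide named for GFP and is labelled wild type. All groups were kept in the same medium, DMEM with fetal bovine serum, which itself brings cholesterol in lipoproteins, and no treatment is named. The labels do not state whether the edited cells were clones or a mixed population, nor whether replicates came from different cultures, so the p-values below measure the spread between these libraries, which may be technical.

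Cells build cholesterol from acetyl-CoA through mevalonate, farnesyl diphosphate, squalene and lanosterol, largely on the endoplasmic reticulum. When sterol in that membrane is low, the escort protein Scap carries SREBP-2, the product of Srebf2, to the Golgi, where it is cut and its released part moves to the nucleus to raise transcription of synthesis and uptake genes. When sterol is plentiful, Insig proteins hold Scap back, and liver X receptors, which sense oxysterols, raise genes of cholesterol export and carriage such as Apoe. Tada2b encodes an adaptor of SAGA, a coactivator complex that acetylates histones at promoters.

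Each library held 70.6 to 76.9 M counts (M, mega). Levels are given as CPM (reads of a gene per 1 M normalized counts), and changes as log2 values with their standard error. Tada2b itself was at 32.3, 33.3 and 32.7 CPM in Tada2bsg1 and at 29.0, 26.0 and 25.9 CPM in Tada2bsg2, against 28.0, 25.2 and 26.6 CPM in GFPsg. The counted mRNA was not lower with either guide. Since gene counts do not show an edited site, these values leave the label unchecked, and the libraries are called labelled knockout below. The melanocyte list, which stands for the labelled cell type, was well expressed in every library, but all 7 of its genes were lower in the libraries labelled knockout, with a summed level of 4973 to 5210 CPM in Tada2bsg1 and 7032 to 7274 CPM in Tada2bsg2, against 20322 to 21118 CPM in GFPsg. Lists for other cell types stayed low, at 6.71 to 7.06 CPM in Tada2bsg1, 6.00 to 6.21 CPM in Tada2bsg2 and 3.62 to 3.90 CPM in GFPsg for 9 leukocyte genes, of which Ptprc and Itgam had no reads in any library. The sum of 8 fibroblast and endothelial genes was 13.5 to 14.5 CPM in Tada2bsg1 and 12.9 to 15.2 CPM in Tada2bsg2, against 6.18 to 8.70 CPM in GFPsg, and that of 6 epithelial genes was at most 1.30 CPM. Pdgfrb, a fibroblast gene of the list, averaged 11.8 CPM in Tada2bsg1 and 12.0 CPM in Tada2bsg2, against 4.36 CPM in GFPsg. Of the 4 tested genes of its list, 2 were called higher, 1 lower and 1 was not called.

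In the cells labelled knockout, the cholesterol pathway was lower almost throughout, from the first condensing enzymes to the last reductase. In the knockout contrast, which sets the mean of both guides against GFPsg, edgeR called 26 of the 31 genes lower and 2 higher at an adjusted p under 0.05, and 3 were not called. The background was high, since 51.0% of all tested genes were called in this contrast, 26.3% lower (4715 genes) and 24.7% higher (4426 genes). Scaled by library size alone, 3436 of all tested genes were lower and 5914 higher, and of the members 24 were lower and 2 higher. The members' median log2 change was −0.79, and that of all tested genes was −0.02. A fall of at least 2-fold was seen in 8 members, Hmgcs1, Mvd, Fdps, Cyp51, Msmo1, Nsdhl, Insig1 and Apoe, and in 4.33% of all tested genes. The 31 genes summed to 2574 ± 26.8 CPM in Tada2bsg1 and 2801 ± 53.8 CPM in Tada2bsg2, against 4735 ± 72.4 CPM in GFPsg (SD, n = 3), which is 54.3% and 59.2% of the GFPsg level. In bulk RNA, fewer cells of a kind and less RNA per cell cannot be told apart. The melanocyte genes given above moved in the same direction, and their part in the result was not tested.

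Set against GFPsg on its own, guide 1 gave 25 members lower and 2 higher with a median of −0.86, where 48.4% of all tested genes were called, 24.5% lower and 23.8% higher. Guide 2 gave 26 lower and 2 higher with a median of −0.72, where 45.1% were called, 23.0% lower and 22.1% higher. These contrasts share the GFPsg libraries. With library size alone the genes called over the whole table were 3268 lower and 5596 higher with guide 1 and 2872 lower and 5363 higher with guide 2, and 24 members were lower and 2 higher with each. For 25 members, all 6 libraries of both guides lay below all 3 GFPsg libraries, a separation found for 22.2% of all tested genes, and for Mylip and Soat1 all 6 lay above, as for 21.8%. Scap lay below with guide 1 and overlapped with guide 2, and the libraries of Ggps1, Nr1h2 and Nr1h3 overlapped with both.

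**Figure D1:**
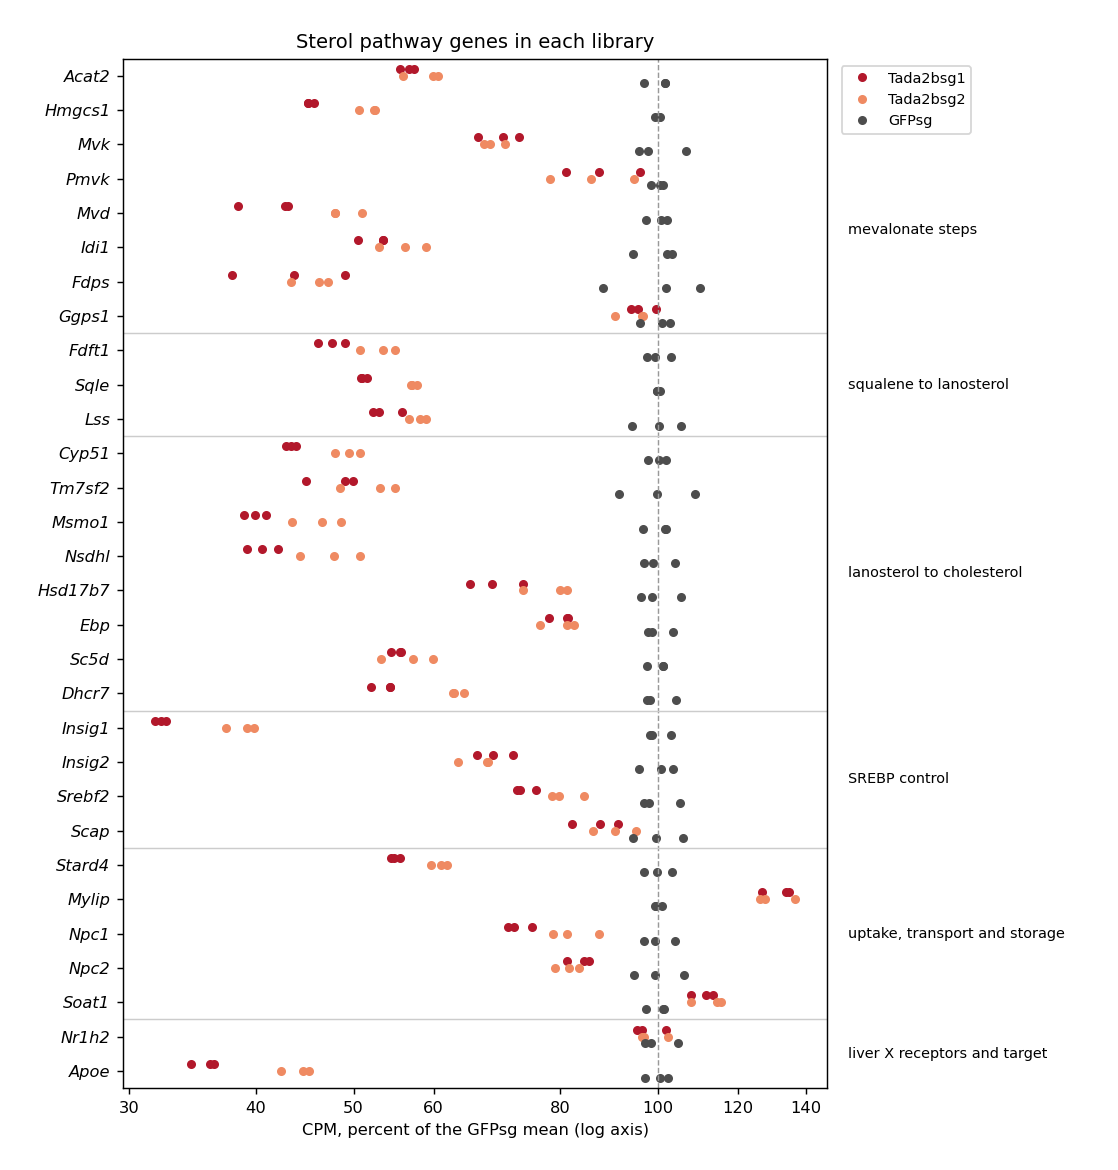
CPM of each gene in every library as a percent of its GFPsg mean, on a log axis, with 3 points per group; the dashed line marks 100% of the GFPsg mean, and Nr1h3 is left out because it had at most 12 reads in a library. Most points of the synthesis genes in Tada2bsg1 and Tada2bsg2 lie well left of the GFPsg points (their sums were 50.6% and 55.6% of GFPsg), Insig1 and Apoe lie lowest, and Mylip and Soat1 lie above the GFPsg points.

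Promoter sequences were read for the members because so many of them moved together. RefSeq windows on the GRCm38.p6 build, from 250 bases before to 50 bases after a transcription start, were at hand for 26 members in 35 windows. They were searched on both strands for the NF-Y box CCAAT, the GC box GGGCGG bound by Sp1, the sterol regulatory element TCACNCCAC bound by SREBP proteins with its core CACCCCAC, the E-box TCACGTGA that SREBP proteins also bind, and the direct repeat of the liver X receptor. The 5 windows shown are those of Hmgcs1, the member that held the sterol regulatory element (chr13:119690101-119690400, plus strand), of the strongly lowered Insig1 (chr5:28071162-28071461, plus strand) and Msmo1 (chr8:64733529-64733828, minus strand), of Ggps1, which was not called (chr13:14063439-14063738, minus strand), and of Mylip, which rose (chr13:45389492-45389791, plus strand). They are written 5′ to 3′ along the gene. Capitals mark each NF-Y box, which reads ATTGG where it lies on the other strand, and the sterol regulatory element TCACCCCAC of Hmgcs1.
Hmgcs1: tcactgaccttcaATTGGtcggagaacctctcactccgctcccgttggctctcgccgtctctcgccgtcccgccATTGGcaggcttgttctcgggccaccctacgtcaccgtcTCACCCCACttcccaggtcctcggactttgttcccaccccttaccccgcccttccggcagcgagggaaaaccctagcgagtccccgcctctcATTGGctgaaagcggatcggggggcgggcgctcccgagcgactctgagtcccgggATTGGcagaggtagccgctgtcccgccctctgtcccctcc
Insig1: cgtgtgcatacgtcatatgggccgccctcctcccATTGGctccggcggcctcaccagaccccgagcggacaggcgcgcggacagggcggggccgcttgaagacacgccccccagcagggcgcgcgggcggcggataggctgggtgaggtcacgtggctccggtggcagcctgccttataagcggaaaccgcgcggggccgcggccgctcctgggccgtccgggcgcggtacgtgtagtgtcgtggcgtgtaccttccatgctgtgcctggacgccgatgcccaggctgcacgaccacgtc
Msmo1: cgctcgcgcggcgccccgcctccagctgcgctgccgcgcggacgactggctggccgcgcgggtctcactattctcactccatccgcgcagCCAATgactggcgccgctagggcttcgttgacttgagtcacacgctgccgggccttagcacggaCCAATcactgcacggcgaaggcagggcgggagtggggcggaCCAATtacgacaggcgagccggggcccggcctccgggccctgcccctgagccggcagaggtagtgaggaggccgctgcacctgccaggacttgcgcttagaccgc
Ggps1: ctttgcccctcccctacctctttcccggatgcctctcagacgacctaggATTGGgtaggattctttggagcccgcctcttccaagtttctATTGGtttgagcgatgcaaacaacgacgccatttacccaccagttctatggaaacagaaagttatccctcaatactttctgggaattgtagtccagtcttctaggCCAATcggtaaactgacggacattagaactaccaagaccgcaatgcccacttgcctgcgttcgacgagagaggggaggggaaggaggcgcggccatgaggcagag
Mylip: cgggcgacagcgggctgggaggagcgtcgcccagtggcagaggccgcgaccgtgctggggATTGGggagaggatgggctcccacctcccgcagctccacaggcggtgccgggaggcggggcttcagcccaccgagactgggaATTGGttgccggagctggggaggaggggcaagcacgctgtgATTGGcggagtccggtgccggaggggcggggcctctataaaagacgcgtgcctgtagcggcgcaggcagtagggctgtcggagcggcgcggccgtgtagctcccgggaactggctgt

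An NF-Y box was present in 21 of the 26 members (80.8%) and in 42.9% of the 10985 tested genes that had a window. A GC box was also present in 21 members (80.8%), against 66.4% of those genes. The sterol regulatory element was found in Hmgcs1 alone (3.85% of members), 137 bases before the start, against 1.48% of tested genes, and its core also in Acat2, 181 bases before the start (7.69% of members against 3.81%). Of the 21 members with a window that were called lower, 18 held an NF-Y box. So did both members called higher and Ggps1, which held 3 of them and was not called, while the windows of Nr1h2, Nr1h3 and Apoe held neither box. The E-box was found in none of these windows, and in 2.10% of tested genes, too few to expect a match among 26 members. The liver X receptor repeat was also found in none. It was present in 0 of the 10985 tested genes with a window, so its absence does not set the members apart. A match only describes the letters, and a lack of one says nothing of sites elsewhere.

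**Figure D2:**
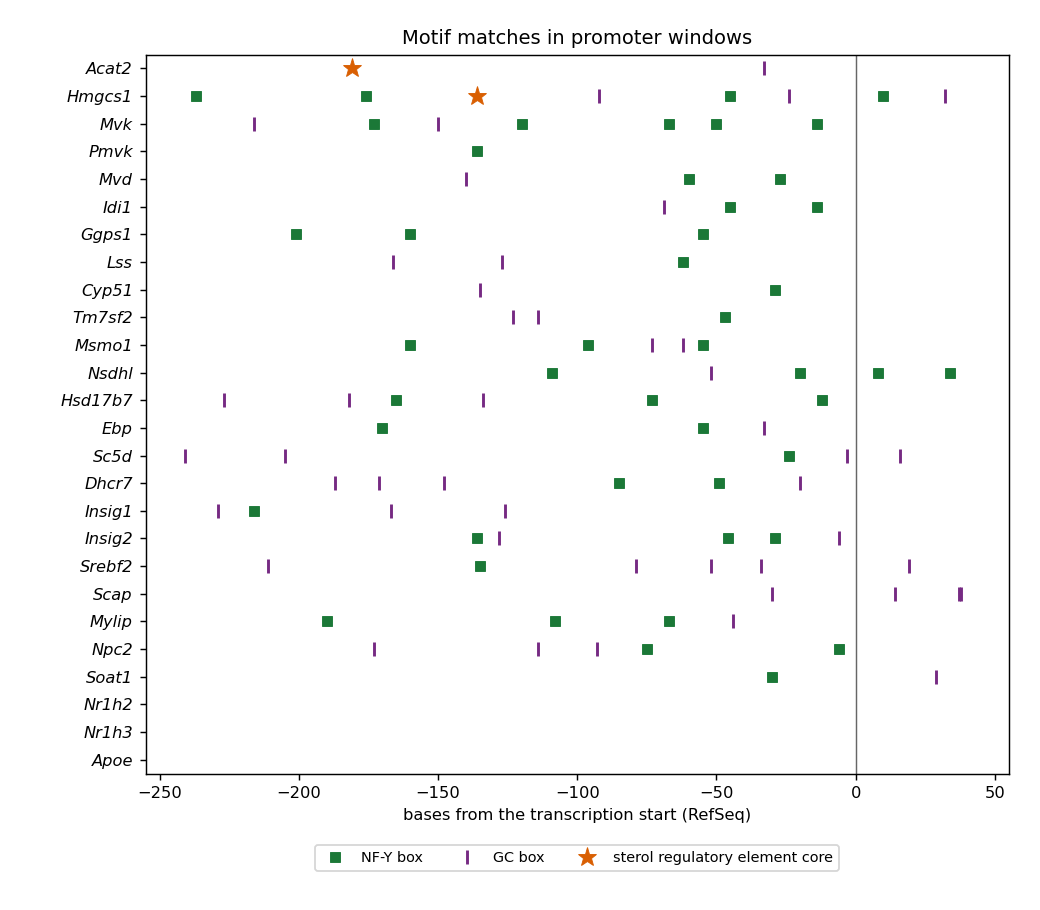
Position of each motif match in the promoter windows of 26 members, in bases from the RefSeq transcription start at 0; squares are NF-Y boxes, bars are GC boxes and stars are the core of the sterol regulatory element. NF-Y boxes recur in 21 members, most of them before the start, and the core appears in Acat2 and Hmgcs1.

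The mevalonate steps lead from acetyl-CoA to the isoprenoid diphosphates. Of these 8 genes, 7 were lower and Ggps1 was not called, with a median log2 change of −0.84 in the knockout contrast. Their summed level was 581 ± 11.2 CPM in Tada2bsg1 and 619 ± 23.9 CPM in Tada2bsg2, against 1053 ± 27.4 CPM in GFPsg (SD, n = 3). Hmgcs1 (ENSMUSG00000093930, mm10 chromosome 13, 119690379 to 119708260) encodes the cytosolic HMG-CoA synthase, which joins acetyl-CoA to acetoacetyl-CoA. It had 106, 106 and 107 CPM in Tada2bsg1 and 119, 123 and 123 CPM in Tada2bsg2, against 235, 233 and 235 CPM in GFPsg. The replicates lay close together, and the mean was 45.3% of the GFPsg mean with guide 1 and 51.8% with guide 2, a change of −1.05 ± 0.03 (edgeR adjusted p = 9.0e-15). Mvd (ENSMUSG00000006517, chromosome 8, 122433601 to 122443422), which decarboxylates mevalonate diphosphate to isopentenyl diphosphate, had 19.7, 21.9 and 22.0 CPM in Tada2bsg1 and 24.5, 24.5 and 26.1 CPM in Tada2bsg2, against 51.5, 52.2 and 49.7 CPM in GFPsg. Its change was −1.15 ± 0.04 (edgeR adjusted p = 4.4e-13), and the 3 groups did not overlap.

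Other mevalonate genes differed in size of change. Acat2, the cytosolic thiolase that makes acetoacetyl-CoA, averaged 118 ± 1.89 CPM in Tada2bsg1 and 123 ± 5.16 CPM in Tada2bsg2, against 209 ± 5.68 CPM in GFPsg, and Idi1, which isomerises isopentenyl diphosphate, averaged 231 ± 7.44 and 246 ± 13.0 CPM in the same guides, against 439.6 ± 20.9 CPM. The kinases in between changed less. Mvk, mevalonate kinase, fell by 0.53 on the log2 scale, and Pmvk, phosphomevalonate kinase, by 0.20 (edgeR adjusted p = 0.0215). Pmvk was at 11.5 ± 0.98 CPM in Tada2bsg1 and 11.2 ± 1.07 CPM in Tada2bsg2, against 13.0 ± 0.19 CPM in GFPsg, and with guide 1 alone it was not called (adjusted p = 0.0667). Its call in the knockout contrast was also lost in 4 of the 9 fits that left out 1 library, those without GFPsg replicate 2 (−0.18), GFPsg replicate 3 (−0.18), Tada2bsg1 replicate 3 (−0.16) and Tada2bsg2 replicate 1 (−0.15), and with library size alone (−0.11).

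At the end of this stretch, Fdps and Ggps1 parted. Fdps, which makes the farnesyl diphosphate that feeds squalene, was at 3.67, 3.19 and 4.12 CPM in Tada2bsg1 and 3.88, 3.96 and 3.64 CPM in Tada2bsg2, against 8.55, 9.25 and 7.41 CPM in GFPsg, a change of −1.17 ± 0.09 (edgeR adjusted p = 6.8e-09). Ggps1 (chromosome 13, 14050659 to 14063488), which makes geranylgeranyl diphosphate for protein prenylation and not for sterols, was at 77.4, 80.7 and 76.2 CPM in Tada2bsg1 and 73.5, 78.1 and 78.4 CPM in Tada2bsg2, against 77.9, 81.9 and 83.4 CPM in GFPsg. Its libraries overlapped, and its change of −0.07 ± 0.04 was not called (edgeR adjusted p = 0.146) and turned to 0.02 with library size alone.

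A near-identical copy of Fdps carried more counts than Fdps itself. Of the Fdps transcript, 91.4% was matched at an identity of at least 95% by 6 other genes, and 26.7% of its exon bases overlapped the annotated gene Gm43738 on the same strand. Fdps itself had 290, 237 and 321 reads in Tada2bsg1 and 295, 307 and 261 reads in Tada2bsg2, against 633, 617 and 530 reads in GFPsg. The processed pseudogene Gm3571 on chromosome 10 (93778660 to 93779719) had 805, 836 and 813 reads in Tada2bsg1 and 858, 1093 and 860 reads in Tada2bsg2, against 1931, 1712 and 1802 reads in GFPsg. The pseudogene exceeded Fdps in all 9 libraries, with a change of −1.16 ± 0.06, and how reads were shared between the loci cannot be told from gene counts. With the reads of copies elsewhere in the genome added to Fdps, its change was −1.16. The same check, chosen after the values were seen, left the direction and call of Acat2 (−0.79; copy Acat3 −0.77), Idi1 (−0.89; copy Gm13502 −0.97) and Fdft1 (−0.99; copy Gm6781 −0.96) in place, and Ggps1 was not called with its copy Gm5630 added (−0.07).

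**Figure D3:**
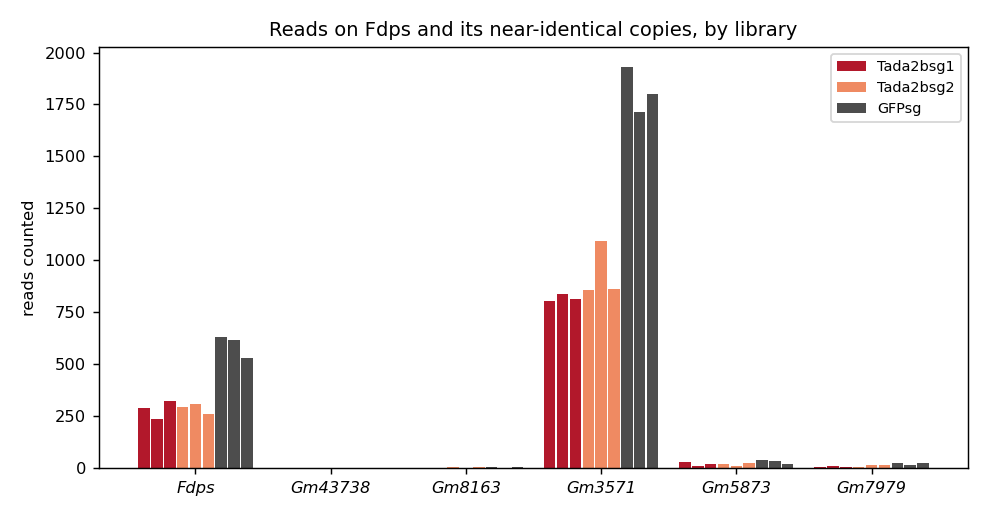
Reads counted on Fdps and on the other genes that match at least 500 bases of its transcript at 95% identity or more, with 1 bar per library in the order Tada2bsg1, Tada2bsg2, GFPsg. Gm3571 carries 805 to 1093 reads with the guides and 1712 to 1931 reads in GFPsg, more than Fdps in every library.

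All 3 enzymes that carry farnesyl diphosphate to lanosterol were lower, with a median of −0.89 and a summed level of 244 ± 4.47 CPM in Tada2bsg1 and 270.4 ± 1.87 CPM in Tada2bsg2, against 479 ± 6.55 CPM in GFPsg (SD, n = 3). Fdft1 (ENSMUSG00000021273, chromosome 14, 63145150 to 63179578), the squalene synthase that commits the pathway to sterols, was at 54.2, 55.7 and 52.4 CPM in Tada2bsg1 and 57.7, 62.5 and 60.7 CPM in Tada2bsg2, against 111, 117 and 113 CPM in GFPsg. It changed by −0.99 ± 0.04 (edgeR adjusted p = 2.2e-13), and 18.3% of its exon bases lie under the oppositely transcribed Ctsb, which rose by 0.11. Sqle (ENSMUSG00000022351, chromosome 15, 59315077 to 59331192), the squalene epoxidase, showed the tightest replicates of the 3, at 132, 133 and 132 CPM in Tada2bsg1 and 149, 148 and 147 CPM in Tada2bsg2, against 260.0, 258 and 258 CPM in GFPsg. The groups were fully apart, at 51.1% of the GFPsg mean with guide 1 and 57.3% with guide 2, a change of −0.89 ± 0.03 (edgeR adjusted p = 5.8e-14). Lss, lanosterol synthase, averaged 57.3 ± 2.00 CPM in Tada2bsg1 and 61.9 ± 1.18 CPM in Tada2bsg2, against 107 ± 5.98 CPM in GFPsg.

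The 8 genes that turn lanosterol into cholesterol were all lower, with a median of −0.92 and a range from −1.22 to −0.32. Cyp51 (ENSMUSG00000001467, chromosome 5, 4081145 to 4104746), the lanosterol demethylase, was at 194, 196 and 192 CPM in Tada2bsg1 and 215, 222 and 227 CPM in Tada2bsg2, against 438, 456 and 449 CPM in GFPsg. Its change was −1.11 ± 0.03 (edgeR adjusted p = 8.4e-15). Msmo1 (ENSMUSG00000031604, chromosome 8, 64718139 to 64733792), the sterol C4-methyl oxidase, was at 162, 166 and 171 CPM in Tada2bsg1 and 181, 194 and 202 CPM in Tada2bsg2, against 402, 423 and 423 CPM in GFPsg. Its change of −1.22 ± 0.04 (edgeR adjusted p = 2.4e-14) was the lowest estimate of the synthesis enzymes. Those of Nsdhl (−1.18 ± 0.04), Fdps (−1.17 ± 0.09) and Mvd (−1.15 ± 0.04) lay close to it. In both Cyp51 and Msmo1 the guide 1 libraries lay below those of guide 2, and both below GFPsg.

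The other enzymes of C4 demethylation differed in size of change. Nsdhl, which acts just after Msmo1, averaged 53.3 ± 1.92 CPM in Tada2bsg1 and 62.4 ± 4.26 CPM in Tada2bsg2, against 131 ± 4.79 CPM in GFPsg, a change of −1.18 ± 0.04. Hsd17b7, the ketoreductase of the same complex, changed by −0.44 ± 0.05. Of the remaining steps, the C14 reductase gene Tm7sf2 fell by 1.00 on the log2 scale at a low level of 4.47 ± 0.25 CPM in Tada2bsg1 and 4.86 ± 0.31 CPM in Tada2bsg2, against 9.32 ± 0.81 CPM in GFPsg. Some of its exon bases (12.1%) are shared with Vps51 on the same strand. Ebp, the sterol isomerase, changed by −0.32 ± 0.04 and was the least changed of this stretch. The last enzymes, the desaturase gene Sc5d (−0.84 ± 0.04) and the reductase gene Dhcr7 (−0.78 ± 0.03), lay close to each other. Dhcr7 averaged 81.3 ± 1.97 CPM in Tada2bsg1 and 96.2 ± 1.37 CPM in Tada2bsg2, against 152 ± 5.63 CPM in GFPsg. Across the 19 synthesis enzymes of the list, Ggps1 among them, the sum was 50.6% of the GFPsg level in Tada2bsg1 and 55.6% in Tada2bsg2.

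**Figure D4:**
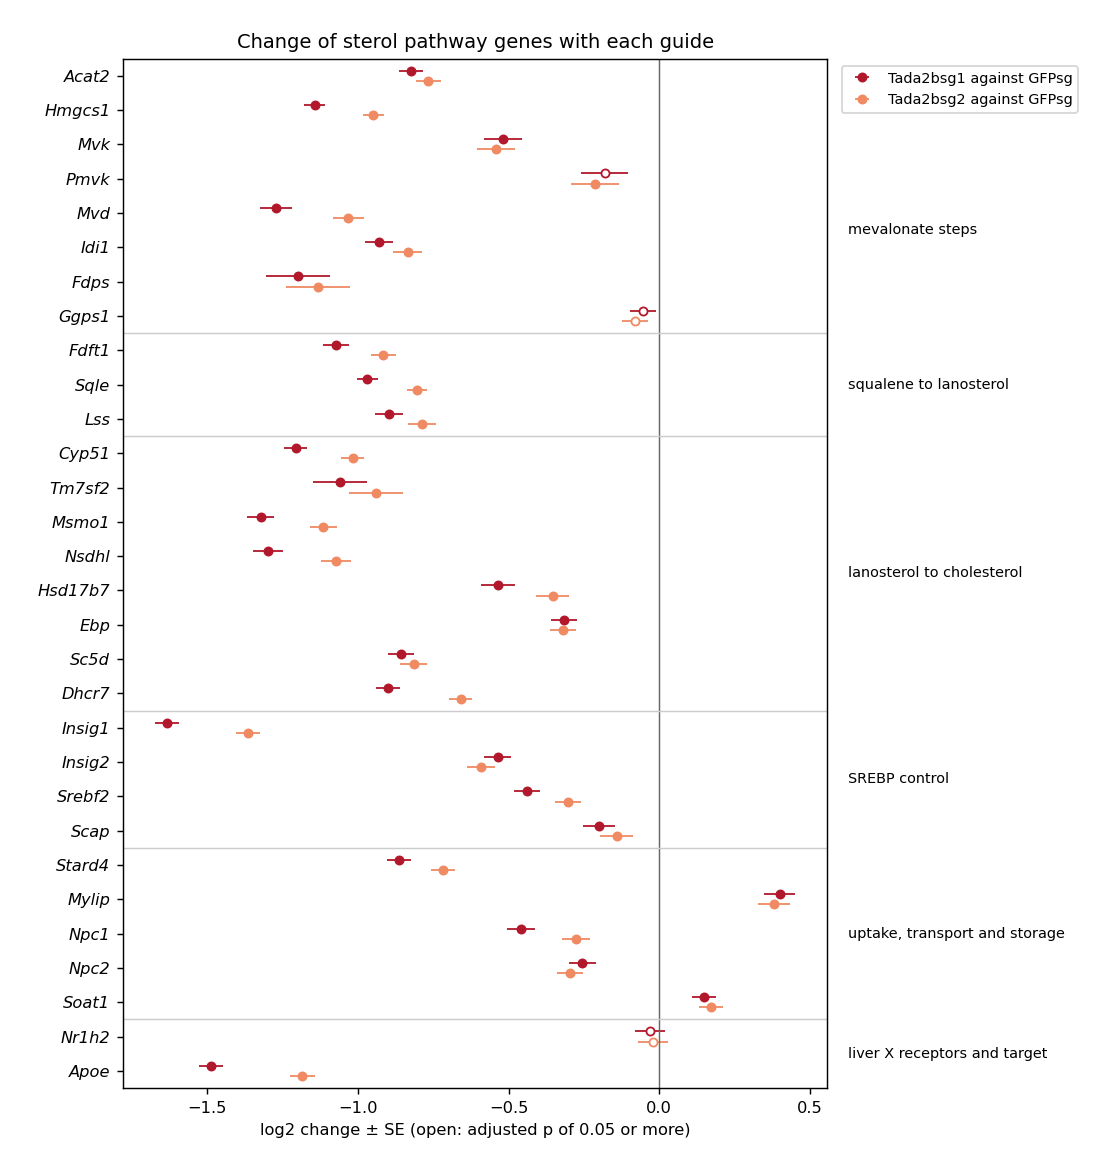
Log2 change of each gene against GFPsg with guide 1 and with guide 2, as points with standard errors; open points were not called (edgeR adjusted p of 0.05 or more), and Nr1h3 is left out. Filled points lie left of 0 for most genes, right of 0 for Mylip and Soat1, and the open points are Ggps1, Nr1h2 and, with guide 1, Pmvk.

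All 4 genes of SREBP control were lower, by very different amounts. Insig1 (ENSMUSG00000045294, chromosome 5, 28071363 to 28078662) encodes a protein that retains Scap and is itself a known SREBP target. It was at 149.5, 153 and 151 CPM in Tada2bsg1 and 176, 185 and 187 CPM in Tada2bsg2, against 462, 484 and 464 CPM in GFPsg. With a change of −1.50 ± 0.03 (edgeR adjusted p = 2.7e-16) it had the lowest value of the 31 genes, and 1.92% of all tested genes lay lower. Insig2 (ENSMUSG00000003721, chromosome 1, 121304353 to 121332589), its relative whose liver transcript is not driven by SREBP, was at 64.5, 62.1 and 67.5 CPM in Tada2bsg1 and 59.6, 63.5 and 63.7 CPM in Tada2bsg2, against 90.0, 97.1 and 94.4 CPM in GFPsg. Its change of −0.56 ± 0.04 (edgeR adjusted p = 1.4e-09) was of similar size with each guide (−0.54 with guide 1 and −0.59 with guide 2). Srebf2, which encodes SREBP-2 itself, averaged 117 ± 2.83 CPM in Tada2bsg1 and 129 ± 5.05 CPM in Tada2bsg2, against 159 ± 7.25 CPM in GFPsg, a change of −0.37 ± 0.04. Scap averaged 42.6 ± 2.24 CPM in Tada2bsg1 and 44.3 ± 2.17 CPM in Tada2bsg2, against 48.9 ± 2.80 CPM in GFPsg. Its change of −0.17 ± 0.05 (edgeR adjusted p = 0.0053) was the smallest of the 4 and was not called with library size alone (−0.09, adjusted p = 0.189). With guide 2 the call of Scap (−0.14, edgeR adjusted p = 0.0421) was lost in 7 of the 9 fits that left out 1 library (−0.10 to −0.14), all but those without GFPsg replicate 3 or Tada2bsg2 replicate 1, and with guide 1 it was lost without Tada2bsg1 replicate 3 (−0.15).

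Genes that move or store cholesterol were split, with 3 of 5 lower and 2 higher and a median of −0.28. Stard4 (ENSMUSG00000024378, chromosome 18, 33199355 to 33213862), a soluble sterol carrier, was at 45.3, 44.4 and 44.7 CPM in Tada2bsg1 and 49.8, 48.6 and 50.4 CPM in Tada2bsg2, against 81.4, 84.3 and 79.1 CPM in GFPsg, a change of −0.79 ± 0.03 (edgeR adjusted p = 2.2e-12). Npc1 (ENSMUSG00000024413, chromosome 18, 12189692 to 12236400), which exports cholesterol from the lysosome, was at 45.7, 43.4 and 44.0 CPM in Tada2bsg1 and 53.4, 49.6 and 48.0 CPM in Tada2bsg2, against 63.4, 59.0 and 60.5 CPM in GFPsg. The fall of Npc1 was −0.37 ± 0.04 (edgeR adjusted p = 7.1e-07), smaller than that of Stard4, and Npc2, its soluble partner in the lysosome, changed by −0.28 ± 0.04.

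Mylip and Soat1 went the other way. Mylip (ENSMUSG00000038175, chromosome 13, 45389742 to 45412022) encodes an E3 ligase that sends lipoprotein receptors to degradation and is a known liver X receptor target. It was at 25.1, 25.2 and 23.7 CPM in Tada2bsg1 and 23.6, 25.6 and 23.9 CPM in Tada2bsg2, against 18.9, 18.6 and 18.6 CPM in GFPsg, a rise of 0.39 ± 0.05 (edgeR adjusted p = 1.6e-06). Every library of either guide exceeded every GFPsg library. Soat1 (ENSMUSG00000026600, chromosome 1, 156424525 to 156474331), which esterifies cholesterol for storage, was at 212, 215 and 205 CPM in Tada2bsg1 and 217, 219 and 204 CPM in Tada2bsg2, against 192, 192 and 185 CPM in GFPsg. Every library of either guide lay above the GFPsg libraries, the guides overlapped each other, and the rise was small, 0.16 ± 0.03 (edgeR adjusted p = 0.00091).

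The liver X receptor genes were not called, and their target Apoe was lower. Apoe (ENSMUSG00000002985, chromosome 7, 19696109 to 19699188), which encodes a lipoprotein component that carries cholesterol out of cells, was at 127, 126 and 120.3 CPM in Tada2bsg1 and 147, 157 and 155 CPM in Tada2bsg2, against 350.1, 357 and 338 CPM in GFPsg. Its change of −1.34 ± 0.03 (edgeR adjusted p = 1.9e-15) was second to that of Insig1 among the 31 genes. Nr1h2 (ENSMUSG00000060601, chromosome 7, 44549616 to 44553951), the widely expressed liver X receptor beta, was at 31.8, 29.7 and 30.1 CPM in Tada2bsg1 and 31.9, 30.2 and 30.1 CPM in Tada2bsg2, against 32.6, 30.7 and 30.3 CPM in GFPsg. Its libraries overlapped, and the change of −0.03 ± 0.04 (edgeR adjusted p = 0.645) took the other sign with library size alone (0.06). Nr1h3, liver X receptor alpha, was near the limit of counting, with 11, 7 and 6 reads in Tada2bsg1 and 1, 12 and 7 reads in Tada2bsg2, against 5, 10 and 2 reads in GFPsg. No difference was detectable at this depth (0.25 ± 0.61, edgeR adjusted p = 0.768). The known liver X receptor targets of the list, Mylip and Apoe, thus changed in opposite directions.

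Levels were also expressed per kilobase of the union of annotated exons, and the order of genes depends on that length. It was 6144 bases for Msmo1, 4208 for Fdps, 4403 for Tm7sf2 and 2138 for Apoe. Their longest coding transcripts have 2044, 1382, 1498 and 1408 bases, and an order by transcript length was not tested. By the exon union, Idi1 led in Tada2bsg1 at 65.8 ± 2.12 CPM per kb, above Apoe at 58.1 ± 1.59 and Insig1 at 49.0 ± 0.64 CPM per kb (SD, n = 3). In Tada2bsg2, Apoe at 71.7 ± 2.39 and Idi1 at 70.3 ± 3.72 CPM per kb did not differ beyond their spread, and Insig1 followed at 59.0 ± 1.96 CPM per kb. The order at the top was another in GFPsg, where Apoe led at 163 ± 4.48 CPM per kb, followed by Insig1 at 152 ± 4.08, Idi1 at 125 ± 5.97 and Cyp51 at 101 ± 2.09 CPM per kb. Tm7sf2 (2.12 CPM per kb), Fdps (2.00 CPM per kb) and Nr1h3 (0.03 CPM per kb) were the lowest in GFPsg, with the caveats on exon length and on counting of Fdps given above.

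The guides themselves differed in this pathway. Set directly against each other in the fit of all 3 groups, 10 of the 31 genes were higher in Tada2bsg2 than in Tada2bsg1, none was lower and 21 were not called, while 3.68% of all tested genes were called, 2.66% higher and 1.02% lower. The 10 were Hmgcs1, Mvd, Sqle, Cyp51, Msmo1, Nsdhl, Dhcr7, Insig1, Npc1 and Apoe, of which 7 are synthesis enzymes. The median log2 difference of the 31 genes was 0.11, and that of all tested genes was −0.003. Apoe differed most, at 0.30 ± 0.04 (edgeR adjusted p = 0.000198), followed by Insig1 at 0.27 ± 0.04 (adjusted p = 0.000469) and Dhcr7 at 0.24 ± 0.04 (adjusted p = 0.00153). For 14 members, all 3 Tada2bsg2 libraries lay above all 3 Tada2bsg1 libraries, as for 12.7% of all tested genes.

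The size of the difference was small beside the change against GFPsg. Insig1, for example, was at 38.8% of its GFPsg mean in Tada2bsg2 and 32.2% in Tada2bsg1. The call count rests on few libraries, since 6 members were called higher in each of the fits without Tada2bsg1 replicate 1, 2 or 3 or without Tada2bsg2 replicate 2. The 7 melanocyte genes were all higher in Tada2bsg2 than in Tada2bsg1 as well, with a median difference of 0.50, and their part in the result was not tested. Tada2b mRNA differed the other way, by −0.28 ± 0.05 (edgeR adjusted p = 0.00671).

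**Figure D5:**
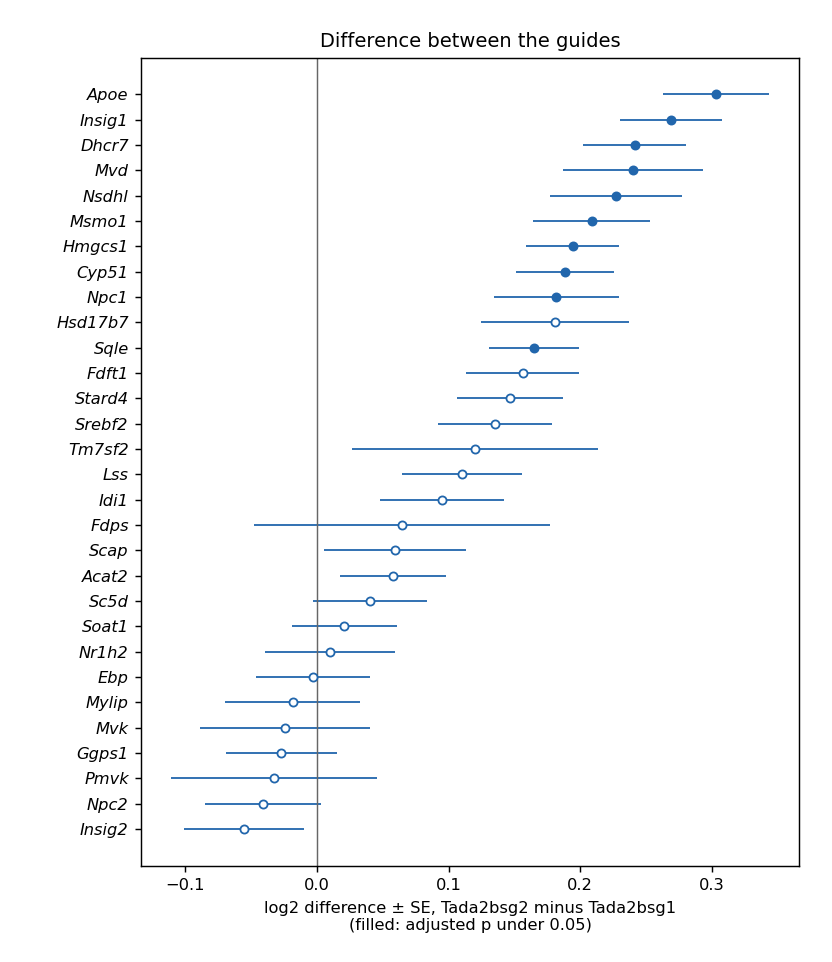
Log2 difference between the guides, Tada2bsg2 minus Tada2bsg1, for 30 genes in order of size, as points with standard errors; filled points had an edgeR adjusted p under 0.05, and Nr1h3 is left out. The 10 filled points run from 0.16 for Sqle to 0.30 for Apoe, and no gene below 0 is filled.

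Sterol-related genes outside the 31 moved in both directions. Of 48 further genes listed for sterol transport, SREBP processing, oxysterols and isoprenoid use, 43 were tested, and 20 were lower, 15 higher and 8 not called in the knockout contrast, with a median of −0.05. Of all tested genes, 26.3% were lower and 24.7% higher in that contrast. Erlin1, which encodes an endoplasmic reticulum membrane protein that binds cholesterol and restrains SREBP activation, averaged 86.4 ± 0.86 CPM in Tada2bsg1 and 77.3 ± 1.99 CPM in Tada2bsg2, against 43.9 ± 1.96 CPM in GFPsg (SD, n = 3), a rise of 0.90 ± 0.04 (edgeR adjusted p = 1.9e-12). Lipa, the lysosomal acid lipase that frees cholesterol from esters taken up with lipoproteins, changed by −0.66 ± 0.04 (edgeR adjusted p = 5.0e-11), to 60.1% of its GFPsg mean with guide 1 and 66.7% with guide 2.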

How the data were processed

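RNA from B16F10 cells was made into stranded mRNA libraries, per the labels' protocols, and the submitters' processing notes name bcl2fastq, HISAT2, HTSeq and the mm10 build. Versions, strand setting and annotation release are not given in the sources used here. The authors deposited raw counts of reads per Ensembl gene, with 1 column per library. IDs were matched to GENCODE M21 (54723 of 54752). Genes were filtered with filterByExpr (count minimum 10), which kept 17931 genes holding 99.97% of counts, scaled by TMM and tested with the edgeR 4.0.16 quasi-likelihood test in R 4.3.3, in 1 fit of all 3 groups, with Benjamini-Hochberg adjustment over all genes tested and a threshold of 0.05. The fit was also run on simulated counts in which few genes changed, unlike in these data, so that run is no check of the scaling used here. Standard errors were obtained by dividing each change by the root of its F value. CPM use TMM-scaled library sizes, and CPM per kb divide by the union of exons.

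Counts of replicates were compared pairwise, with a chi-square of 7.12 to 22.7 per degree of freedom, and no pair agreed within sampling noise. Reads shared with near-identical copies, and reads of overlapping or antisense genes, cannot be told apart in these counts. The 31 genes, the role groups, the 48 further sterol genes, the cell type markers and the motifs were chosen with earlier results of these data known. Values of every library are given for the 2 genes of each role group with the lowest p, for genes not called and for genes called against their group's direction, and for Fdps, which was added after its values were seen. From the further sterol genes the 4 with the lowest p were picked, and some genes picked by this rule are not reported here. Alternatives were DESeq2 1.42.0, other scalings and filters, a replicate block, fits of 2 groups and leaving out each library.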

Additional observations from a re-analysis of the deposited data

Results flagged for a closer look

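The change against GFPsg differed between the guides for 10 of the 31 genes, by the direct test of Tada2bsg2 against Tada2bsg1 in edgeR, at an adjusted p under 0.05. In each the level was higher in Tada2bsg2. Of all tested genes, 3.68% were called by this test, 2.66% higher and 1.02% lower. On the log2 scale the differences were 0.19 for Hmgcs1 (adjusted p = 0.00387), 0.24 for Mvd (0.0163), 0.16 for Sqle (0.0104), 0.19 for Cyp51 (0.00742), 0.21 for Msmo1 (0.0123), 0.23 for Nsdhl (0.0161), 0.24 for Dhcr7 (0.00153), 0.27 for Insig1 (0.000469), 0.18 for Npc1 (0.043) and 0.30 for Apoe (0.000198). All 3 Tada2bsg2 libraries lay above all 3 Tada2bsg1 libraries for each of these 10 genes, as for 12.7% of all tested genes. This separation is read from the same values as the calls and adds no support to them. The call of Npc1 was the least firm and was lost in 7 of the 9 fits that left out 1 library (0.14 to 0.21). Hmgcs1, Dhcr7, Insig1 and Apoe were called in all 9 of these fits.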

How the results depend on the processing

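In the knockout contrast, 24 to 26 members were lower and 2 higher under every alternative run, and against GFPsg the counts were 24 to 26 lower with guide 1 and 24 to 26 lower with guide 2, with 2 higher in each. The members' median moved by more than the spread between replicates (0.02) with library size alone, to −0.71 in the knockout contrast, −0.77 with guide 1 and −0.63 with guide 2. With the stricter filter it moved to −0.74 with guide 2. That filter asks for a group mean of at least 1 CPM, so Nr1h3 drops out and the median is taken over fewer genes. Without 1 library it ran from −0.86 to −0.83 with guide 1 and from −0.73 to −0.68 with guide 2. With library size alone Ggps1 changed sign (0.018 in the knockout contrast, 0.031 with guide 1, 0.0061 with guide 2), as did Nr1h2 (0.058, 0.052 and 0.064). None of these was called. Without 1 library Nr1h2 ran from −0.037 to 0.0063 in the knockout contrast, −0.050 to 0.0016 with guide 1 and −0.034 to 0.011 with guide 2, and Nr1h3 from −0.15 to 0.98, −0.040 to 1.10 and −0.54 to 0.87. The cause of the moves other than that with the stricter filter was not tested.

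Between the guides, leaving out 1 library gave 6 to 12 members higher, and 76 to 248 of all tested genes lower and 259 to 572 higher. Without a filter on low counts 372 of all tested genes were lower. Differences near 0 changed sign without 1 library in Mvk (−0.060 to 0.0065), Pmvk (−0.11 to 0.038), Fdps (−0.024 to 0.16), Ggps1 (−0.046 to 0.0077), Ebp (−0.026 to 0.034), Mylip (−0.056 to 0.0090), Soat1 (−0.00049 to 0.051), Nr1h2 (−0.013 to 0.040) and Nr1h3 (−0.91 to 0.29). Same-numbered libraries of different groups had correlated deviations of −0.01 to 0.10, and differently numbered ones had −0.09 to 0.04. These values do not settle whether the numbers pair the samples. The main fit had no replicate block because the labels name no pairing. The replicate block gave 15 members higher between the guides, against 10 without it, with 726 of all tested genes lower and 979 higher, and 26 members lower in the knockout contrast. Adding the reads of near-identical copies, an alternative chosen after seeing the data, changed no member's call. Low counts limit Nr1h3, and reads shared with near-identical copies limit Fdps.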
